A study of Danio rerio with 6 samples.

Results

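Keratins are the intermediate filament proteins of epithelial cells. Each filament is built from pairs of a type I and a type II chain. In simple epithelia the pair is the type II chain Krt8 with the type I chain Krt18, while skin cells also make other pairs. The retinal pigment epithelium (RPE) is a single sheet of pigmented cells behind the photoreceptors, and its cells hold Krt8 and Krt18 filaments in several vertebrates. The neurons and glia of the retina mostly use other intermediate filaments.

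The genes described are 6 keratin genes named in the array's probe-to-gene table. They are the simple epithelial keratins krt8, krt18a.1 and krt18b and the skin keratins krt94, krt4 and krt5. These class names do not show which cells expressed the genes here. Each had 1 probe set, so there are 6 probe sets among 15502 tested, and 6 genes among 8793. All 6 probe sets are listed with 1 gene each. In RefSeq's gene table krt5, krt8, krt18a.1 and krt18a.2 are neighbours in a row. There krt4 and krt18b lie with 1 protein-coding gene between them, and krt94 lies beside krt93, in a cluster with krt15 and krt99. No probe set was listed with krt18a.2 alone, and whether that of krt18a.1 also reads it was not tested.

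RNA was measured on 6 arrays of wild-type zebrafish embryos of the AB strain, aged 52 hours post fertilization. In 3 pools the retina was taken with its RPE attached, and 3 pools were retina alone. Every pool combined 10 dissected tissues, from which 33 ng of total RNA was labelled in 2 cycles of amplification. The series' design deducts the retinal part from the mixed tissue to estimate what the RPE adds. In such bulk tissue fewer cells of a type and less RNA per cell cannot be told apart.

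Most measured markers of RPE and melanin were higher in the tissue labelled as having RPE attached. Of 12 measured genes of RPE and melanin, 10 were called higher in retina with RPE, against 19.4% of all genes, among them rpe65a, which makes visual chromophore, and dct, an enzyme of melanin synthesis. The median log2 change of that list was 1.65, against 0.04 over all genes. The other 2 genes of the list, rlbp1a at 0.23 and mitfb at -0.02, were not called. Markers of other tissues around the eye were higher too. The summed intensity of 23 genes of mesenchyme and cartilage was 1561 to 2200 in retina with RPE and 1013 to 1078 in retina. Array medians lay between 73.2 and 74.5 in retina with RPE and between 68.7 and 69.6 in retina. The 6 arrays did not share identical quantiles, and the sources used here do not say whether further arrays were normalized with them.

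The 3 simple epithelial keratins and krt94 were higher when RPE was attached, by 2.04-fold to 3.72-fold, while krt4 and krt5 were not called. Calls were made in limma where the p, adjusted over the 15502 probe sets by Benjamini-Hochberg, fell under 0.05. Of all probe sets 34.5% were called, with 19.0% called higher and 15.6% called lower. Among the keratins 4 of 6 were called and all 4 were higher. A call with a rise of at least 2-fold was reached by 0.593% of all probe sets, and by those 4 keratins. Of these krt94 lay close to that size, and under it after quantile normalization, cyclic loess or a pseudocount of 16, at log2 changes of 0.91, 0.90 and 0.80, and without replicate 2 or 3 of retina with RPE. These genes were chosen with earlier results of the same arrays known, so the counts describe them and are not independent evidence.

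The krt8 transcript encodes the type II chain of simple epithelia. Its intensity was 167, 179 and 166 in the retina with RPE pools and 49.9, 39.0 and 49.3 in the retina pools. Every pool of retina with RPE lay above every retina pool, as was so for 28.7% of all probe sets, while in 49.5% the groups did not overlap in either direction. The mean was 171 ± 7.42 in retina with RPE and 46.1 ± 6.10 in retina (SD, n = 3 each). This was a 3.72-fold rise (95% interval 3.14 to 4.40, adjusted p = 1.8e-05 by limma), at rank 12 of all probe sets by log2 change.

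The krt18a.1 transcript encodes a type I partner of Krt8. Intensities were 239.7, 241 and 211 in retina with RPE and 57.6, 70.5 and 76.2 in retina. No pool of one group reached the range of the other. The rise was 3.40-fold (interval 2.85 to 4.07, adjusted p = 3.8e-05 by limma), at rank 15 by log2 change. The rises of krt8 and krt18a.1 differed by 0.13 on the log2 scale, and the within-array differences of this pair overlapped between the groups (exact permutation p = 0.6, 2-sided, n = 3 each).

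A further krt18 gene, krt18b, encodes another type I chain of this class. It read 71.0, 72.1 and 48.3 in retina with RPE and 21.4, 22.9 and 26.7 in retina. The groups did not overlap, but replicate 3 of retina with RPE lay a long way under the other two. The rise was 2.67-fold (interval 2.1 to 3.39, adjusted p = 3.0e-04 by limma). The coefficient of variation in retina with RPE was 21.1% for krt18b, against 4.35% for krt8 and 7.20% for krt18a.1. Some marker sums were lowest in that pool and others were not. The summed intensity of the 12 RPE and melanin genes was 6515, 6118 and 5136 in the retina with RPE pools and 2032, 2180 and 2463 in retina. That of the mesenchyme and cartilage genes was 2200, 1986 and 1561 in retina with RPE and 1013, 1078 and 1060 in retina. The sum of the neural crest and other pigment cell markers was instead highest there, at 2954, 3134 and 3195 in retina with RPE and 1383, 1437 and 1714 in retina. The part of these in the krt18b value was not tested. Without that array krt18b rose by 1.61 on the log2 scale, against 1.42 with all arrays. Its retina values were dim. Replicates 1 and 2 of retina lay under the lower quartiles of their arrays, 24.9 and 26.0, and replicate 3 of retina just above its own, 26.0. With a pseudocount of 16 the log2 change of krt18b was 1.00, and no background level was given, so its fold is uncertain.

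**Figure D1:**
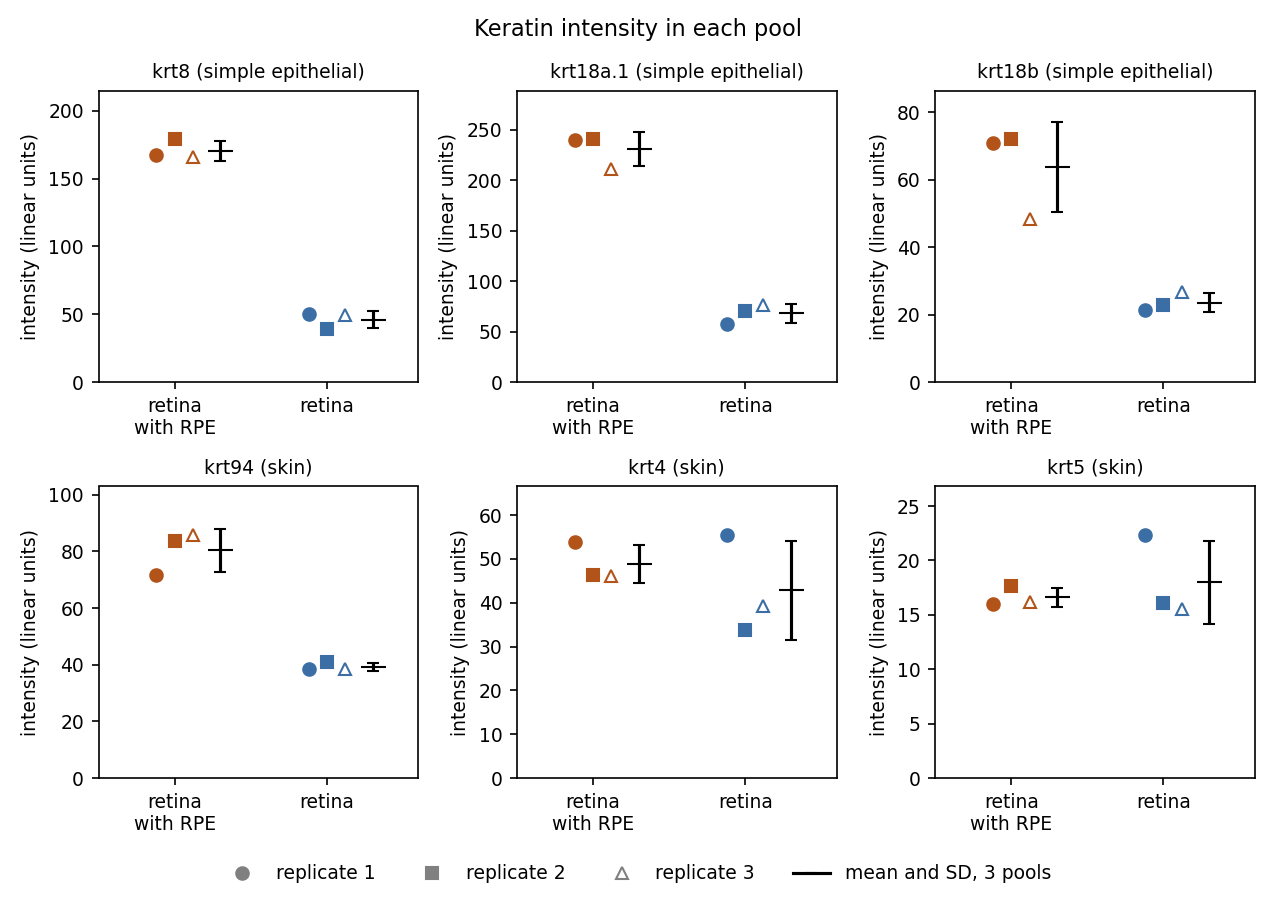
Intensity of each keratin gene on a linear scale, with 1 point per pool, shaped by replicate number, and bars for the mean and SD of 3 pools, retina with RPE left of retina. The 4 genes krt8, krt18a.1, krt18b and krt94 have separate groups, whereas krt4 and krt5 overlap and are highest in replicate 1 of retina, at 55.4 and 22.3.

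Among the skin keratins krt94, a type I keratin gene of fish, also rose. It read 71.8, 83.5 and 85.7 in retina with RPE and 38.4, 41.0 and 38.4 in retina. Every retina with RPE pool lay above every retina pool. The mean was 80.3 ± 7.49 in retina with RPE and 39.3 ± 1.5 in retina (SD, n = 3 each). The rise was 2.04-fold (interval 1.76 to 2.36, adjusted p = 1.3e-04 by limma), at rank 88 by log2 change.

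The type II keratin gene krt4 is strongly expressed in the outer skin layer of zebrafish embryos. It read 53.8, 46.4 and 46.1 in retina with RPE and 55.4, 33.8 and 39.2 in retina. The highest of all 6 pools was a retina pool, replicate 1, so the groups overlapped. The log2 change was 0.22 (interval -0.14 to 0.58, adjusted p = 0.324 by limma), a range that reaches a fold of 1.49. Within retina krt4 had a coefficient of variation of 26.2%, against 8.96% within retina with RPE. The result turned on replicate 1 of retina. Without that array the log2 change of krt4 was 0.42 and was called (adjusted p = 0.0250, limma).

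The gene krt5 encodes a type II keratin, known in mammals from basal skin cells. It read 16.04, 17.6 and 16.2 in retina with RPE and 22.3, 16.1 and 15.5 in retina. All of these lay under the lower quartile of their own array, which was 24.9 to 28.4 over the 6 arrays. Replicate 1 of retina was again the highest pool and the groups overlapped. The log2 change was -0.093 (interval -0.39 to 0.21, adjusted p = 0.616 by limma), and 0.073 without that array. No background level came with these values, so a change of a transcript near background could not be seen here.

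Within each array the simple keratins were set against the skin keratins, to ask whether they changed unequally. In 8 of 9 pairs of a simple and a skin keratin the log2 difference was higher in every retina with RPE pool than in every retina pool. Each of those had an exact permutation p = 0.1, 2-sided, the smallest that 3 against 3 pools allow, and 0.113 after adjustment over the 9 pairs, so no pair could pass 0.05. The change of krt8 exceeded that of krt5 by 1.99, that of krt4 by 1.68 and that of krt94 by 0.87 on the log2 scale. For krt18a.1 the excess was 1.86 over krt5, 1.55 over krt4 and 0.74 over krt94. For krt18b it was 1.51 over krt5 and 1.2 over krt4. The remaining pair, krt18b against krt94, overlapped between the groups, at an excess of 0.39 (exact permutation p = 0.2, 2-sided, n = 3 each). The 9 pairs reuse the same 6 genes, and krt4 and krt5 were both highest in replicate 1 of retina, so the pairs are not independent. Among single probe sets the groups did not overlap in 49.5%, counting both directions. No such share was computed for pairs of other genes.

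**Figure D2:**
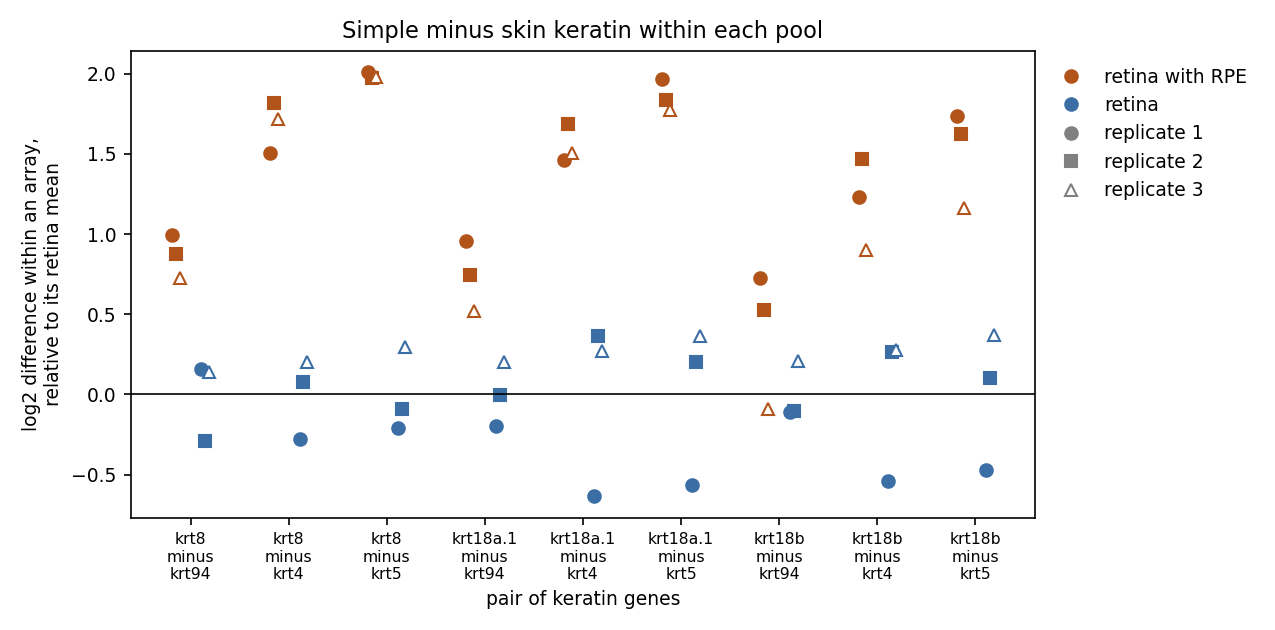
Log2 intensity of a simple keratin minus that of a skin keratin within each array, set to a retina mean of 0, for 9 pairs, with 1 point per pool shaped by replicate number and retina with RPE left of retina. Points of retina with RPE lie above those of retina in every pair apart from krt18b minus krt94, where 1 pool falls among the retina pools.

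The estimated changes also differed within each class. The change of krt8 exceeded that of krt18b by 0.48 and that of krt18a.1 exceeded it by 0.35 on the log2 scale. The change of krt94 exceeded that of krt4 by 0.81 and that of krt5 by 1.12. The change of krt4 exceeded that of krt5 by 0.31, although neither gene was called and krt5 lay under the lower quartile of every array. None of these pairs overlapped between the groups (exact permutation p = 0.1 each, 2-sided, n = 3 each). After adjustment over the 6 pairs within a class these p-values were 0.12, and no pair could pass 0.05. The remaining pair, krt8 against krt18a.1, overlapped, at a difference of 0.13 (exact permutation p = 0.6, 2-sided, n = 3 each). Groups did not overlap in 49.5% of single probe sets, counting both directions, and no such share was computed for pairs of other genes. Neighbouring genes also differed in their calls. The gene krt5 was not called beside krt8 and krt18a.1, and krt4 was not called close to krt18b. Without replicate 1 of retina krt4 was called, and unlike calls alone do not test a difference.

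The retinal part was deducted here with a retinal share taken from the arrays. The share and the formula, the ratio minus the share over 1 minus the share, were chosen here and are not the study's. The share was the median ratio of the level with RPE to that in retina, over 25 genes of photoreceptors, neurons and synapses. It came to 70.8%, with quartiles of 60.9% and 88.5%. Those genes were kept for a mean log2 value of 8 or more in retina, the divisor of the ratio. Such a choice can lower the share. The share also takes the expression of those genes outside the retina as 0. At that share the estimated level in the added tissue over that in retina was 10.3-fold for krt8, with an interval of 8.34 to 12.7. It was 9.23-fold for krt18a.1 (7.32 to 11.5), 6.71-fold for krt18b (4.76 to 9.19) and 4.56-fold for krt94 (3.61 to 5.66). The intervals of krt4, at 1.55-fold (0.674 to 2.68), and krt5, at 0.786-fold (0.184 to 1.53), included 1. Without replicate 1 of retina they stood at 2.35-fold for krt4 and 1.21-fold for krt5. These intervals hold the share fixed, and the added tissue is all that came with the RPE. At a share of 50% the estimate for krt8 was 6.44-fold and at 80% it was 14.6-fold. The estimate grows with the share, and the upper quartile of 88.5% was not run, so these values do not bound it.

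The other keratin genes on the array changed by less than krt8, krt18a.1, krt18b and krt94. With all arrays, those that were called rose by more than krt4 and krt5 did. Of 9 further keratin genes 7 were called higher and 0 lower, against 36.4% of all genes called, 19.4% higher and 17.0% lower, counting 1 probe set a gene. Their median log2 change was 0.34, against 0.04 for all genes. The largest were krt1-19d, at a log2 change of 0.64 ± 0.0993, and krt91, at 0.52 ± 0.0829 (SE). The gene krt1-19d read 32.5, 39.0 and 32.5 in retina with RPE and 21.2, 22.0 and 23.5 in retina. The gene krt91 read 37.6, 37.7 and 37.7 in retina with RPE and 25.7, 27.9 and 25.1 in retina. Both had a second probe set that was also called higher, at 0.31 for krt1-19d and 0.82 for krt91.

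Genes close to krt94 in the genome were among them, with krt93 at 0.41, krt15 at 0.34 and krt99 at 0.30 on the log2 scale. The remaining calls were krt97 at 0.40 and krt1-19e at 0.34, whose second probe set was not called. The genes krt95 and krt17, at 0.10 and 0.03, were not called. These probe sets were dim, and their calls depended on the scaling. After quantile normalization or cyclic loess over the 6 arrays, the calls of krt1-19d and krt91 remained and those of the other 5 were lost, while krt17 and krt95 changed sign. Without replicate 2 or replicate 3 of retina with RPE 4 of the 9 were called higher. A further keratin probe set is listed with several genes and was left out.

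**Figure D3:**
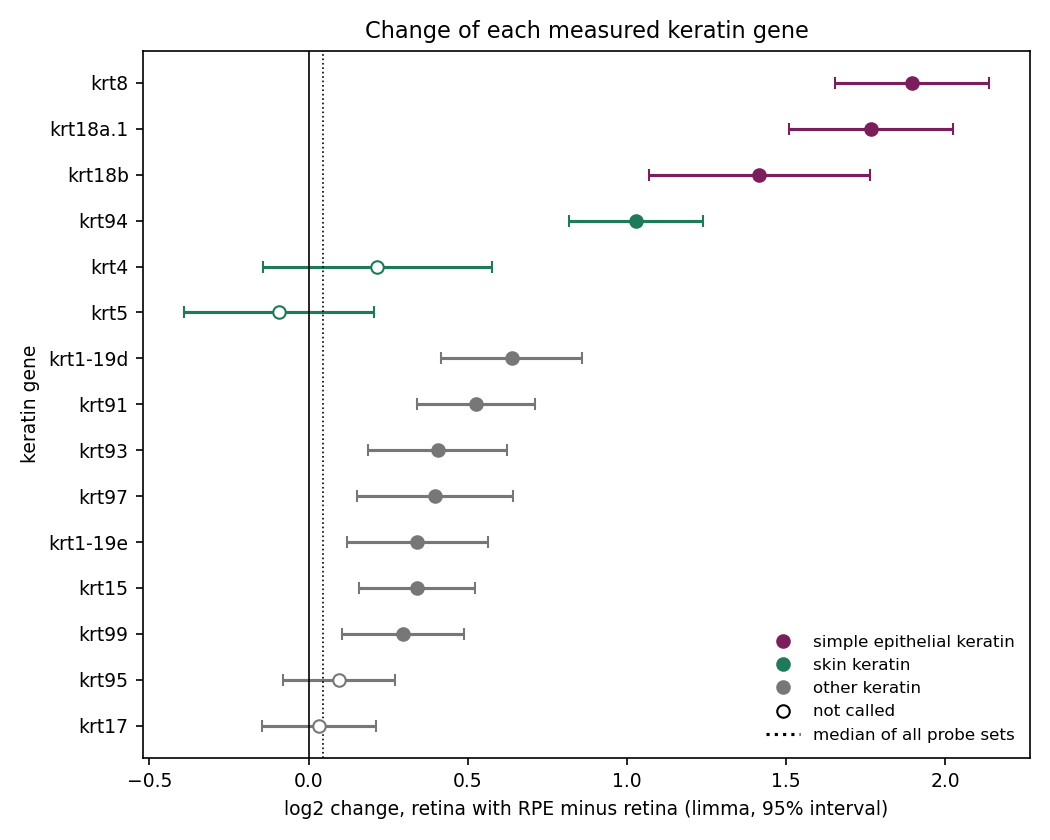
Log2 change of each measured keratin gene, retina with RPE minus retina, with 95% limma intervals from 3 pools a group, filled where called. The simple keratins lie at 1.42 to 1.90, krt94 at 1.03, krt4 and krt5 across 0, and the other keratins between 0.03 and 0.64.

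Other intermediate filament genes had 6 of 13 called higher and 0 lower, against 19.4% of all genes higher and 17.0% lower, with a median log2 change of 0.10. The muscle filament genes desma and desmb rose by 0.68 and 0.48, the lamin gene lmnb2 by 0.62 and vim, the vimentin gene of mesenchyme and glia, by 0.46. The gene vim read 309 ± 25.5 in retina with RPE and 224 ± 22.2 in retina (SD, n = 3 each). The neuronal filament gene inab rose by 0.44, at 713 ± 63.4 in retina with RPE and 527 ± 76.6 in retina. The lamin gene lmna rose by 0.40 by the brighter of its 2 probe sets. The changes of gfap, the filament gene of glia, at 0.10, and of another neuronal filament gene, prph, at 0.06, were not called. None of these reached the rise of any of the 4 called keratin genes.

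Keratin filaments attach to desmosomes between cells and to hemidesmosomes at the basement membrane. The genes of these junctions did not move as one. Of 17 measured, 6 (35.3%) were called higher and 3 (17.6%) lower, with a median log2 change of 0.08. Over all genes 19.4% were higher and 17.0% lower. The plakoglobin gene jupa, whose protein links desmosomal cadherins to filaments, was lower by a log2 change of -1.33, at 224 ± 36.7 in retina with RPE and 557 ± 20.9 in retina (SD, n = 3 each). The plakophilin relative pkp4 changed by -0.68 and perp, a desmosomal membrane protein gene, by -0.55. The second probe set of perp was called in the opposite direction, at 0.43.

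The desmosomal cadherin genes dsg2.1 and dsc2l rose by 0.52 and 0.38. The other 2 probe sets of dsg2.1, at -0.05 and 0.17, were not called, while the other of dsc2l was called higher at 0.31. The laminin gene lama5, of basement membranes, rose by 0.46 and pleca, the plectin gene whose protein ties keratins to hemidesmosomes, by 0.37. The desmoplakin gene dspa, which anchors keratins at desmosomes, changed by 0.11 and was not called. Of 21 genes of epithelial adhesion and polarity 1 (4.76%) was called higher, tjp3 at 0.39, and 3 (14.3%) lower, both under the shares of all genes. Those were ctnnb1 (beta-catenin), which changed by -0.78, llgl2, a polarity gene, by -0.34, and epcam by -0.28. The second epcam probe set, at 0.23, was not called.

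Markers of skin and its outer layer were read beside the keratins, because skin next to the eye also expresses them. Of 43 measured, 14 (32.6%) were called higher and 3 (6.98%) lower, with a median log2 change of 0.17. Over all genes 19.4% were called higher and 17.0% lower, with a median of 0.04. Quantile normalization or cyclic loess left 7 called higher, and leaving out replicate 2 or replicate 3 of retina with RPE left 8. The largest rises were those of ahnak, at 1.63, anxa2a, an annexin gene, at 1.21, and s100v2, at 0.86, and aep1 rose by 0.54. The gene ahnak, which encodes a large scaffold protein, read 232, 231 and 168 in retina with RPE and 74.6, 63.3 and 63.3 in retina.

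The other calls were smaller. Those higher were dlx3b at 0.54, klf17 at 0.43, abcb5 at 0.42, lgals3b at 0.38 and spint1b at 0.36, with tp63, krt15, st14b, anxa3b and spint1a between 0.29 and 0.35. The gene tp63, a transcription factor of skin, was called higher at 0.35 by the brighter of its 2 probe sets. That probe set read 79.5 ± 8.74 in retina with RPE and 62.4 ± 3.40 in retina (SD, n = 3 each). The value of spint1b is that of the brightest of its 4 probe sets. Further probe sets of these genes are not given here. The E-cadherin gene cdh1 read 15.9 ± 1.09 in retina with RPE and 14.5 ± 0.605 in retina and was not called. The periderm claudin genes cldne and cldni changed by 0.12 and -0.16 and were not called, and epcam was called lower. The annexin gene anxa1a and tfap2c changed by -0.55 and -0.53, and the second probe set of tfap2c was not called. The summed intensity of the 43 genes was 6938 to 7695 in retina with RPE and 7783 to 8813 in retina. Most of that sum came from tfap2a, which amacrine neurons of the retina also express. Without tfap2a, a sum that was not planned, it was 1820 to 1900.3 in retina with RPE and 1562 to 1714 in retina. Within that sum ahnak alone had means of 210 in retina with RPE and 67.1 in retina, so it does not describe all the markers alike. No value is at 0 on these arrays, and no detection call shows which markers were absent. The part of skin cells in the keratin values was not tested.

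Other tissues were read in the same way, against the 19.4% of all genes called higher and 17.0% lower. Of 7 lens genes 2 (28.6%) were called higher, the crystallin gene cryaa at 0.41 and the connexin gene gja8b at 0.38, and their sum was 328 to 372 in retina with RPE and 284 to 305 in retina. Of 23 genes of mesenchyme and cartilage 17 (73.9%) were called higher, with a median of 0.58. They were led by the collagen genes col2a1a at 1.82 and col9a2 at 1.33 (log2 changes). Of 11 markers of the neural crest and other pigment cells 9 (81.8%) were called higher and 0 lower, with a median of 0.81. The largest rises were those of gch2 at 2.89, crestin at 2.24 and slc2a15b at 2.16 (log2 changes). The second probe set of gch2, at 0.10, was not called, and that of slc2a15b was called higher at 0.42. The sum of the 11 markers was 2954 to 3195 in retina with RPE against 1383 to 1714 in retina. The gene mitfa, called higher at 1.08, is counted there and also among the RPE and melanin genes. Genes of photoreceptors, neurons and synapses more often went the other way. Of 39, 2 (5.13%) were called higher, 16 (41.0%) lower and 21 not called, with a median of -0.18. The largest falls were those of atoh7 at -1.18, gad1b at -1.04, nsfa at -0.98 and pde6ha at -0.95, while pde6c at 0.88 and rx2 at 0.54 rose. The second probe set of pde6ha was called higher at 0.93. Those of nsfa, at 0.25, and rx2, at 0.04, were not called. The part of these tissues in the keratin values was not tested.

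**Figure D4:**
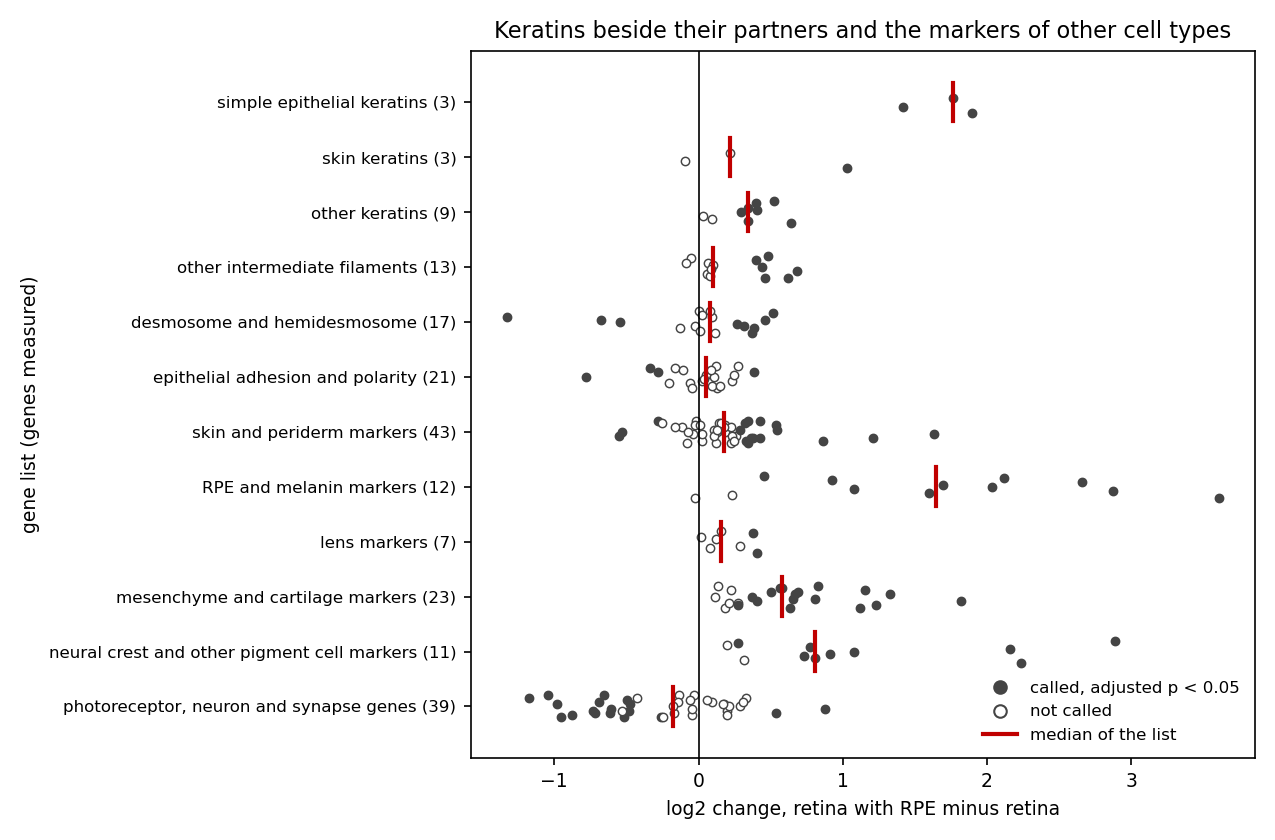
Log2 change of each measured gene, retina with RPE minus retina, 1 point per gene by its brightest probe set, filled where called, in rows by gene list with the list's median as a red bar. Medians are 1.77 for the simple keratins and 1.65 for the RPE and melanin markers. They are 0.81 for the neural crest and other pigment cell markers and 0.58 for mesenchyme and cartilage. The skin keratins have a median of 0.22, with krt94 at 1.03, and the skin and periderm markers 0.17.

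The genes with a pattern most like that of krt8 were sought among 5438 genes with a mean log2 value of 6 or more. Among the measured keratins only krt8 and krt18a.1 reached that value, so krt18b and krt94 could not appear. Likeness was the root mean square distance over the 6 arrays, with each gene set to its retina mean. The nearest was rgrb, an opsin relative of the RPE, at a distance of 0.19 on the log2 scale. It read 716, 589.7 and 517 in retina with RPE and 144, 137 and 160.5 in retina. Next came serpinh1b, a collagen chaperone gene, at 0.21, then krt18a.1 at 0.22. The melanosome trafficking gene rab32a and the pigment cell gene slc2a15b followed, each at 0.22. The 5 genes nearest to krt4 were csk, mbpb, sumo3a, mks1 and cdk5rap3, at distances of 0.05 to 0.07. None of them was called. The gene csk, a kinase gene, read 161, 156 and 142 in retina with RPE and 169.6, 106 and 123 in retina. As with krt4, replicate 1 of retina was its highest pool. These distances follow mainly from the 2 groups and from single arrays, and describe likeness only.

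**Figure D5:**
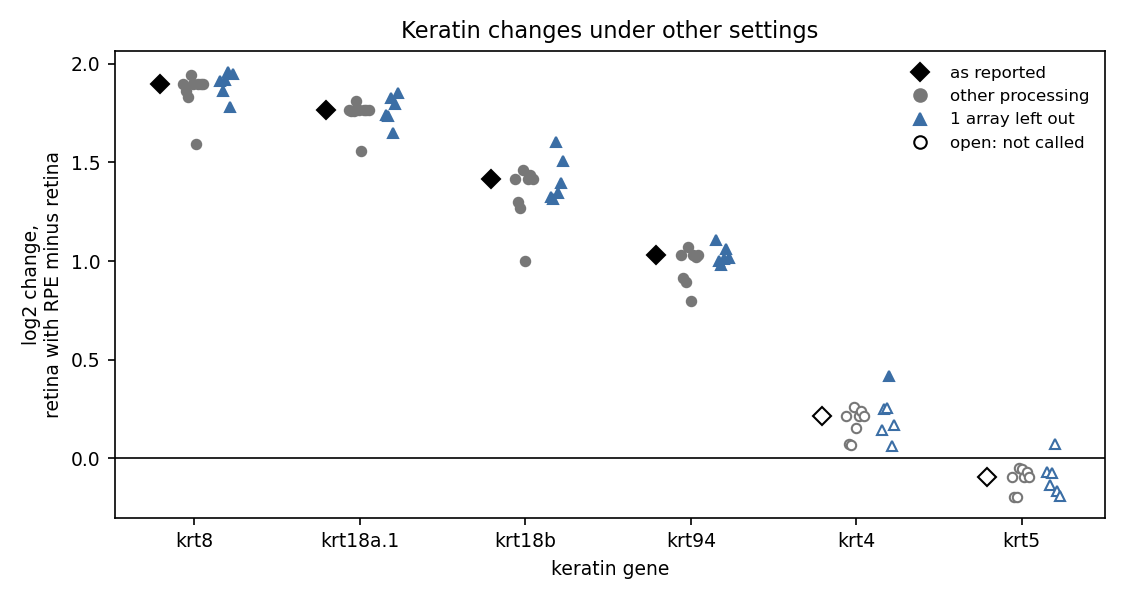
Log2 change of each keratin, retina with RPE minus retina, as reported (diamonds), under other processing (circles) and with 1 array left out (triangles), filled where the adjusted p was under 0.05. The simple keratins and krt94 stay above 0.79 and filled, while krt4 is filled at 1 point, without replicate 1 of retina at 0.42, and krt5 lies around 0.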

How the data were processed

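The authors deposited 1 intensity for each probe set on each array, on a linear scale as read from the values. RMA (background correction, normalization and probe summary), the affy package and R 2.2.0 are named, per the submitters' processing notes, with no order of steps. Of 15617 probe sets 115 controls were left out. Gene names came from the platform annotation, with 10711 of 10795 probe sets of 1 gene matched by identifier to RefSeq's gene table. Where a gene had several probe sets, the one brightest on average over the 6 arrays stood for it.

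The fit was limma 3.58.1 on log2 intensities, under R 4.3.3, using lmFit and eBayes with 2-sided p-values. Errors are the SD over 3 pools, or limma's standard error (SE) for log2 changes. The number of arrays limits the precision. Pools are biological replicates by their labels. The fit was tested on simulated data. Figures were drawn with matplotlib 3.10.9.

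The keratins and the gene lists were chosen with earlier results of these data known. Named genes were all keratins, up to 4 called genes of each list in each direction, and the 5 genes nearest to krt8 and to krt4. Further list genes, called or not, were named after their values were seen. No sequence is shown.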

Additional observations from a re-analysis of the deposited data

How the results depend on the processing

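The calls of krt8, krt18a.1, krt18b and krt94 held in every alternative in which each was tested, with log2 changes of 1.59 to 1.96, 1.56 to 1.85, 1.00 to 1.61 and 0.80 to 1.11. The lowest of each came from a pseudocount of 16. A filter at a mean log2 value of 6 left 2 of the 6 keratins, krt8 and krt18a.1, both called. Leaving out 1 array gave 4 to 5 called keratins. It moved krt4 between 0.062 and 0.42, called at 0.42 without replicate 1 of retina, and krt5 between -0.19 and 0.073, where it changed sign without that array. The differences between simple and skin keratins kept their direction in all alternatives run for pairs. Those were quantile normalization, a pseudocount of 16 and leaving out 1 array. A median over probe sets could change nothing, as each gene had 1. With the pseudocount the excess of krt18b over krt94 fell to 0.20. Leaving out 1 array gave 0.72 to 0.95 for krt8 over krt94, and 0.22 to 0.63 for krt18b over krt94.

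With a fixed share of 0.5 the fold of added tissue over retina was 6.44 for krt8, 5.81 for krt18a.1, 4.34 for krt18b and 3.08 for krt94. With 0.8 it was 14.6, 13.0, 9.34 and 6.20, and larger shares were not run. Leaving out 1 array gave 8.88 to 12.6 for krt8, 8.53 to 10.1 for krt18a.1, 5.86 to 8.24 for krt18b, 4.44 to 5.08 for krt94, 1.14 to 2.35 for krt4 and 0.571 to 1.21 for krt5.

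Over all probe sets 5355 were called, 2938 higher. The filter gave 3112 and 1179, the ordinary test per probe set 2331 and 1266, an adjusted p under 0.01 2666 and 1338, and leaving out 1 array 3439 to 5104 and 1805 to 2725. The share of calls that lay higher was 54.9%, 64.2% after centring on ribosomal protein genes, 49.9% under quantile normalization and 48.3% under cyclic loess. Counts for the other keratins and the skin markers were recomputed as alternatives chosen after seeing the data. The other keratins called higher numbered 2 under quantile normalization and under cyclic loess, 0 under the filter, 4 under the ordinary test, 2 at an adjusted p under 0.01, and 4 to 7 with 1 array left out. The skin markers numbered 7, 7, 2, 7, 6 and 8 to 13 in the same order. The filter left none of the other keratins to test, as the brightest, krt1-19e, had a mean log2 value of 5.83. Of the skin markers called higher it kept only ahnak and tp63. These counts under the filter therefore reflect removal and not lost calls. The replicate number as a block gave 5786 called probe sets and the same 4 keratin calls. The numbers were not taken as pairs in the main fit. Deviations of same-numbered pools correlated at 0.17, 0.08 and 0.13, and those of pools with unlike numbers at -0.15 to 0.03. Each pool correlated best with its own number. The titles of retina with RPE replicates 2 and 3 also carry inner pool names with other numbers. The cause of these shifts was not tested. Dim probe sets have no known background, which limits krt5 most and also the folds of krt18b, whose retina values were dim.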
